A study of Homo sapiens with 4 samples.

Results

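The human genes for keratins (KRT) and keratin-associated proteins (KRTAP) were described by the cohesin and CTCF peaks and loops that lie on or beside them. Members were the protein-coding genes of chromosomes 1 to 22 whose name in GENCODE release 44 (hg38) is KRT or KRTAP followed by a number, which gave 149 of 19111 genes, 55 KRT and 94 KRTAP. They fell into 6 loci, with 27 members on chromosome 12, 62 on chromosome 17, 33 and 16 in a pair of loci on chromosome 21, and 6 and 5 in a pair of loci on chromosome 11. A peak or a loop anchor was assigned to a member when the peak summit, or the nearest edge of the anchor, lay within 20 kb of the gene.

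HiChIP, which joins chromatin immunoprecipitation to the capture of DNA contacts, was performed in HG00731, a lymphoblastoid cell line (B cells immortalised with Epstein-Barr virus). The SMC1 group carried FA-EGS double crosslinking and an antibody to the cohesin subunit SMC1, and the CTCF group carried FA crosslinking alone and an antibody to CTCF, with 2 replicates each of the same untreated line. The lists used here come from the 2 replicates of a target pooled by the authors, so no value has a spread between replicates and no test between the targets could be made. The target and the crosslinking differ together, so their effects on a list cannot be told apart. Shares below carry a 95% Wilson interval, which covers counting error only, and neighbouring members often share the same peaks.

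Keratins are the intermediate filament proteins of epithelia. A type I keratin pairs with a type II keratin, and dedicated sets of each build the filaments of simple epithelia, stratified epithelia, the inner root sheath and the hair shaft. Keratin-associated proteins are small proteins, rich in cysteine or in glycine and tyrosine, that embed the keratin filaments of hair, and they are known from hair follicles rather than from blood cells. Type II keratin genes lie together on chromosome 12 with KRT18, and the other type I genes lie on chromosome 17, where they flank a block of KRTAP genes. Cohesin is a ring complex that extrudes DNA loops, and CTCF is a DNA-binding protein at which extrusion often stops, most often at a pair of motifs that point towards each other.

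The sequence of a CTCF site with a motif hit in an intron of KRTAP5-11 is printed here, because it holds one of the strongest CTCF peaks beside a KRTAP gene. It is the hg38 reference read in the direction of the motif, with the 19 bases of the hit in capitals and 20 bases on either side. The motif was learned from CTCF summits on chromosomes without a member, its positions with one prevailing base read NNCCNNNAGNNGGCNNNNN, and both strands were scored as a weight matrix.
within KRTAP5-11, chr11:71589278-71589336, plus strand: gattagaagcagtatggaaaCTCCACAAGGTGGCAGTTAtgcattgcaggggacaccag

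Most of these genes had neither target beside them. No summit of SMC1 or CTCF lay within 20 kb of 84 of 149 members (56.4%, 48.4 to 64.1), against 8.54% of all protein-coding genes. An SMC1 summit lay within 20 kb of 45 members (30.2%, 23.4 to 38), against 90.0% of all genes, and a CTCF summit lay within 20 kb of 59 members (39.6%, 32.1 to 47.6), against 88.8%. Both targets were beside 39 members, SMC1 alone beside 6 and CTCF alone beside 20. The same split was not computed over all genes, so whether it is particular to these genes was not tested.

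The members are short, with a median length of 1.16 kb against 27.9 kb for all genes, so a window around the whole gene covers less sequence. Within 20 kb of a start, SMC1 was present for 28.9% of members against 86.0% of all genes, and CTCF for 38.3% against 82.5%. Within 1 kb of an own start, SMC1 was present for 1 of 149 members against 59.1% of genes, and CTCF for 1 of 149 against 42.2%. The SMC1 case was KRT13 (ENSG00000171401.15, chr17:41500981-41505705, minus strand), a type I keratin of mucosal epithelia, with a summit in an intron 820 bp from a start. That peak was weak, at a fold enrichment of 2.38 over the local background and a −log10 q of 2.94. The CTCF case was KRT17 (ENSG00000128422.18, chr17:41619442-41624842, minus strand), a keratin of skin appendages, with a summit in an exon 284 bp from a start, a fold enrichment of 2.96 and a −log10 q of 3.85. Both values lie close to the lowest −log10 q in the lists, which is 2.01 for SMC1 and 2 for CTCF.

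The 2 families differed from each other. SMC1 lay beside 32 of 55 KRT genes (58.2%, 45.0 to 70.3) and 13 of 94 KRTAP genes (13.8%, 8.26 to 22.2). CTCF lay beside 39 KRT genes (70.9%, 57.9 to 81.2) and 20 KRTAP genes (21.3%, 14.2 to 30.6). The intervals of the families do not overlap for either target, although members within a locus are not independent. KRT genes, with a median length of 7.1 kb against 0.859 kb for KRTAP genes, also have slightly wider windows.

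Other families of genes placed the values on a scale. The 15 other intermediate filament genes, among them the vimentin and lamin genes, had SMC1 beside 14 and CTCF beside 14. The gene of vimentin (VIM), the intermediate filament of lymphoid and mesenchymal cells, had 8 SMC1 and 6 CTCF peaks within 20 kb, and LMNA, which encodes lamins A and C of the nuclear envelope, had 16 and 13. The HOX genes, a clustered family of developmental regulators, had each target beside 38 of 39. Clustered protocadherins, adhesion proteins of neurons, had SMC1 beside 32 of 53 and CTCF beside 50. The olfactory receptor genes of chromosome 11, which like the KRTAP genes are small, clustered and restricted to one tissue, had SMC1 beside 64 of 178 (36%, 29.3 to 43.2) and CTCF beside the same number. For SMC1 the KRT interval overlapped that of the protocadherins (46.9 to 72.4), while for CTCF it lay below theirs (84.6 to 98.1). For SMC1 the upper end of the KRTAP interval lay below the lower end of that of the olfactory receptors. For CTCF the KRTAP and olfactory receptor intervals overlapped. These intervals take neighbouring genes as independent, yet every KRTAP gene of chromosome 17 lies in a single stretch of 666.6 kb without SMC1. Whether the families differ beyond such shared stretches was not tested.

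**Figure D1:**
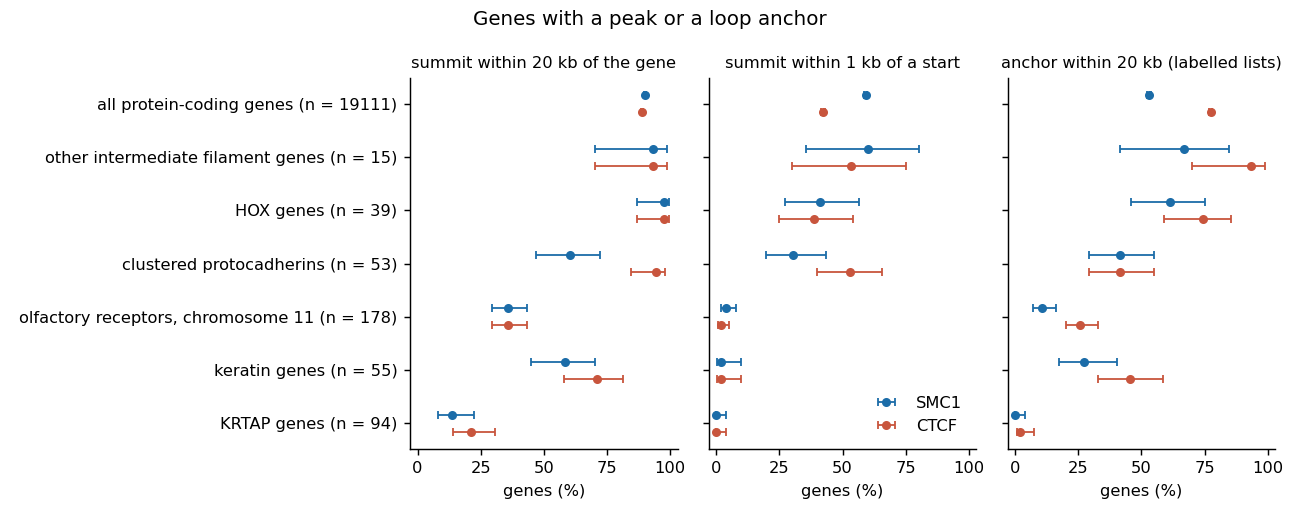
Share of genes (%) with a peak summit within 20 kb of the gene, with a summit within 1 kb of a start, and with a loop anchor within 20 kb, for 7 gene groups, SMC1 in blue and CTCF in red, with 95% Wilson intervals as bars. KRTAP genes have the lowest shares in each panel, with 13.8% for SMC1 and 21.3% for CTCF in the first.

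Type I and type II hair keratins differed. All 6 type II hair keratin genes, KRT81 to KRT86 on chromosome 12, had both targets beside them, and the median distance from gene to summit was 0 bp for each target. Among them KRT86 had the most peaks of any member, with 8 SMC1 and 11 CTCF peaks within 20 kb. Its annotated model (chr12:52249300-52309163) runs over KRT81, so that several peaks counted for both genes. KRT84 had 6 and 6 peaks and KRT85 had 5 and 5. The 11 type I hair keratin genes on chromosome 17, which encode the partners of these proteins, had SMC1 beside 3 and CTCF beside 4, with median distances of 89379 bp and 58842 bp.

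Among the epithelial keratins, SMC1 lay beside 9 of 13 type I genes and 8 of 15 type II genes, and CTCF beside 8 and 12. The keratins of the root sheath had SMC1 beside 2 of 4 type I genes (KRT25 to KRT28) and 3 of 5 type II genes (KRT71 to KRT75), and CTCF beside 4 and 4. Most genes of the KRTAP classes lay far from peaks. SMC1 was beside 5 of 39 high-sulfur, 5 of 32 ultrahigh-sulfur and 3 of 22 high glycine-tyrosine genes, and the median distance to an SMC1 summit was 62996 bp, 242158 bp and 174064 bp.

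**Figure D2:**
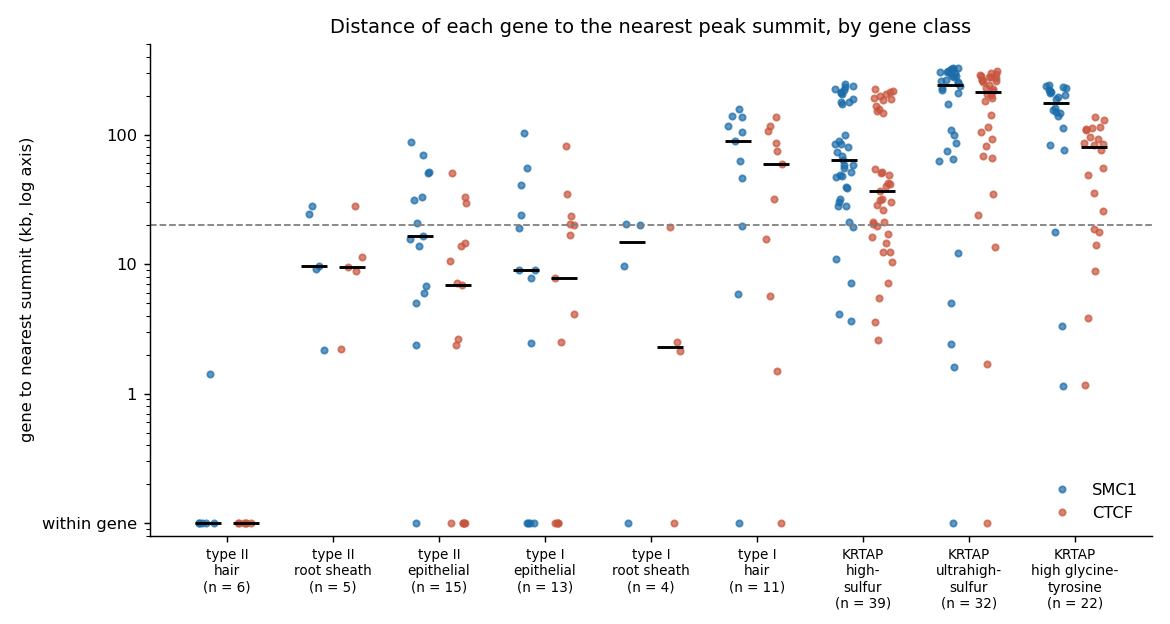
Distance from each gene to the nearest SMC1 (blue) or CTCF (red) summit in kb on a log axis, by gene class, with black bars at the medians, a dashed line at 20 kb and summits inside a gene drawn at the bottom. The 6 type II hair keratins lie at or near a summit, and most KRTAP genes lie above the dashed line.

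The distinct peaks numbered 57 for SMC1 and 75 for CTCF. Over the joined windows this was 2 SMC1 and 2.63 CTCF peaks per 100 kb, against 3.43 and 2.23 over chromosomes 1 to 22. The pooled densities hid opposite loci. Chromosome 12 held 3.79 SMC1 and 5.19 CTCF peaks per 100 kb, both above the genome. Chromosome 17 held 1.39 and 1.99 and chromosome 21 held 0.735 and 0.98, all below the genome. The genome values cover all bases, also those far from genes, and the density in windows around all genes was not computed. Counted per gene, chromosome 12 was not above all genes. SMC1 lay beside 18 of its 27 members (66.7%, 47.8 to 81.4), against 90.0% of all genes. CTCF lay beside 23 (85.2%, 67.5 to 94.1), against 88.8%. On chromosome 11 the locus from KRTAP5-7 to KRTAP5-11 held 6.03 and 5.17, and that from KRTAP5-1 to KRTAP5-6 held 0 of either. The SMC1 peaks present had a median fold enrichment of 4.09 (3.52 to 4.59, from the ranks) against 3.31 for all SMC1 peaks, which lies below that interval. The CTCF peaks had a median of 4.34 (3.69 to 5.24) against 4.96 for all CTCF peaks, which lies within that interval. By locus, chromosome 12 held 30 SMC1 and 41 CTCF peaks, chromosome 17 held 14 and 20, the chromosome 21 loci held 6 and 8, and chromosome 11 held 7 and 6.

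Where SMC1 was present, CTCF was usually present too. Of the 57 SMC1 peaks, 45 overlapped a CTCF peak (78.9%, 66.7 to 87.5), against 47.0% of all SMC1 peaks. The summits of the pairs were close, with a median offset of 47 bp and 34 of 45 within 100 bp. The shared SMC1 peaks were the stronger ones, with a median −log10 q of 23.6 against 5.68 for the 12 SMC1 peaks without CTCF. Of the 75 CTCF peaks, 48 overlapped an SMC1 peak (64.0%, 52.7 to 73.9), against 75.8% of all CTCF peaks. The shared CTCF peaks had a median −log10 q of 27.4 and the 27 others 5.02. Summit offsets and the medians of shared and unshared peaks were not computed over all peaks. Whether they are particular to these genes was not tested.

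CTCF motif hits within 50 bp of the summit were found at 15 of 75 CTCF peaks (20%, 12.5 to 30.4), against 17.9% of all CTCF peaks and 5.00% of control windows placed 1000 bases away. They were found at 13 of 57 SMC1 peaks (22.8%, 13.8 to 35.2), against 11.3% of all SMC1 peaks. Hits were present at 9 of 41 CTCF peaks on chromosome 12, 4 of 20 on chromosome 17, 2 of 6 on chromosome 11 and 0 of 8 on chromosome 21. No match says only that no window of 19 bases there reached the score.

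On chromosome 12 the 3 strongest SMC1 peaks stood at 3 places, each with a CTCF peak. The first was beside KRT80, the epithelial keratin gene at one end, where SMC1 had a −log10 q of 197.4 and CTCF 272.2, both between genes and about 5 kb from KRT80 (4957 and 4894 bp). The second was beside KRT83, with SMC1 at 198.8 and CTCF at 351.8, the highest value of any peak near a member. The third was in the interval before KRT8, with SMC1 at 154.8 and CTCF at 154.2, 12107 and 12106 bp from the gene. KRT8 and KRT18 encode the keratin pair of simple epithelia. The third strongest CTCF peak stood elsewhere, in an intron of KRT86, with a −log10 q of 193.3 beside an SMC1 peak of 87.04. The CTCF peak before KRT8 was also exceeded by one of 162.9 beyond KRT78.

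Long stretches of the type II cluster had no peak. The longest stretch of chromosome 12 without a summit of either target ran for 110.9 kb, from 52396051 to 52506910, and held KRT75, KRT6B, KRT6C and KRT6A, of which the KRT6 genes encode keratins induced in activated keratinocytes. SMC1 alone was missing over 196.7 kb, and 2.06% of all stretches between SMC1 summits were longer. That stretch held 7 members from KRT1 to KRT78, among them KRT76, KRT3 and KRT4. These 3 were the members of this cluster farthest from SMC1, at 88172, 69400 and 51401 bp. KRT1 is the type II keratin of differentiating epidermis and KRT4 that of mucosa. CTCF peaks did occur in that stretch, at or beside KRT77, KRT4, KRT79 and KRT78, each with a −log10 q of 7.38 or less except the one of 162.9 at its far edge.

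On chromosome 17 the peaks stood at both ends, and the middle was empty. No summit of either target lay between 40841185 and 41456450, a stretch of 615.3 kb that held 45 members, from KRT12, the keratin of the cornea, through every KRTAP gene of this chromosome to KRT38. For SMC1 the stretch ran for 666.6 kb and held 47 members, up to KRT35. Of 154051 stretches between adjacent summits on chromosomes 1 to 22, 262 were longer than the 615.3 kb (0.170%), and the median was 4.52 kb. The members farthest from SMC1 were KRTAP4-5 at 328571 bp, KRTAP4-4 at 326239 bp and KRTAP4-6 at 319080 bp, all genes of ultrahigh-sulfur proteins.

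The authors required a mapping quality over 30, which leaves out reads that align equally well to several places, and repeated sequence was counted for that reason. In the reference, 2.33% of the 100-base windows of the 615.3 kb stretch occurred more than once, against 0.206% in the flanks of the locus, but single genes in it were largely repeated, with 59.8% of the windows within KRTAP9-8, 59.4% within KRTAP9-2, 57.5% within KRTAP2-1 and 48.1% within KRTAP2-4. The 110.9 kb stretch of chromosome 12 had 2.97%, against 0.587% in the flanks of that locus. Of the windows within its genes, 15.5% were repeated in KRT6B, 20.8% in KRT6C, 9.38% in KRT6A and 0.00% in KRT75. Near-identical copies that differ by single bases are left out of this count, and the part of mapping in the missing peaks was not tested. For members with no SMC1 peak within 20 kb, the median share of such windows within 20 kb of the gene was 0.66%, and 90 of 104 had under 5%. For those with an SMC1 peak it was 0.201%, and 41 of 45 had under 5%.

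The peaks that bound the stretch were weak CTCF peaks, with a −log10 q of 3.11 and 4.13, and stronger sites lay outside it. Beside KRT28, an inner root sheath keratin, SMC1 had a −log10 q of 204 at position 40803785 and CTCF 222.6 at 40803832, with fold enrichments of 9.76 and 13.6. On the other side, CTCF had 128.7 in an intron of KRT36, a hair keratin, while SMC1 there had 20.8. SMC1 had 80 in the interval between KRT36 and KRT13, and its next highest value, 56.8, lay 16090 bp from KRT9, where CTCF had 94.2. CTCF had 125.3 and SMC1 45.4 beside KRT14, the type I keratin of basal keratinocytes. KRT10, the type I keratin of differentiating epidermis, had 3 SMC1 and 3 CTCF peaks within 20 kb, the highest of which belonged to the site beside KRT28.

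**Figure D3:**
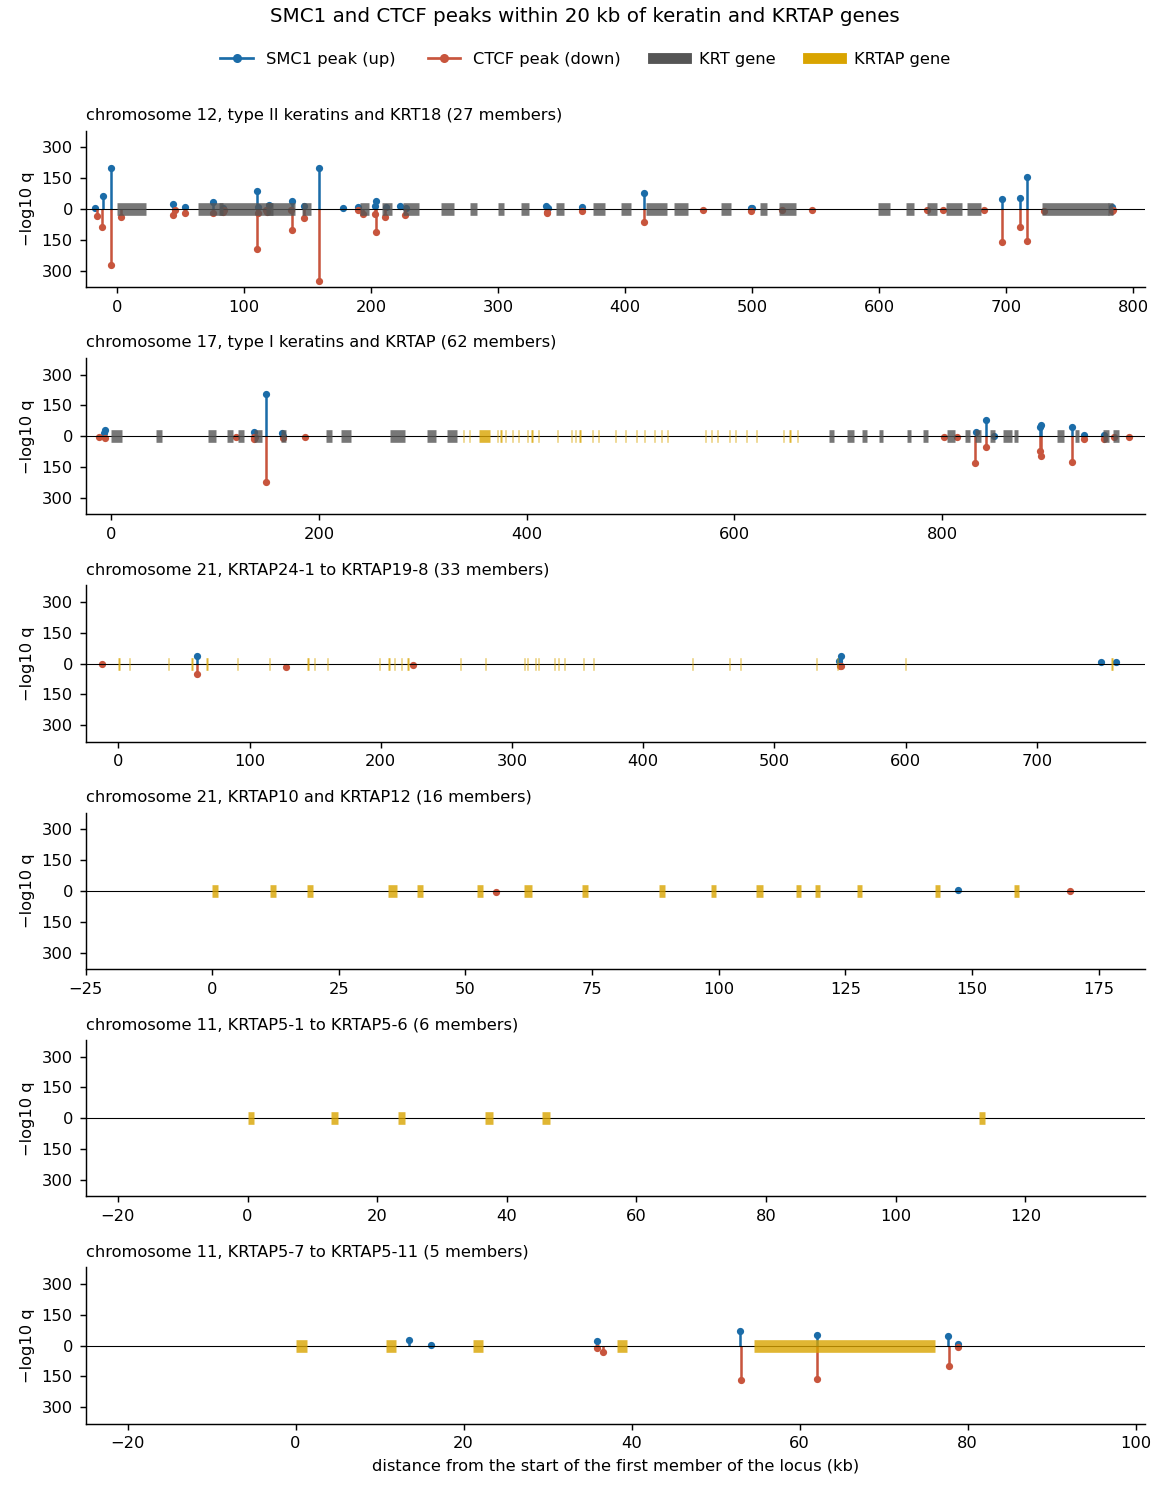
Peaks within 20 kb of members at the 6 loci, with −log10 q of SMC1 drawn upwards in blue and of CTCF drawn downwards in red against the distance from the start of the first member in kb, and with KRT genes in grey and KRTAP genes in yellow. The middle of the chromosome 17 locus is without a peak over 615.3 kb, and the tallest peaks of chromosome 17 stand outside that stretch.

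On chromosome 21 few peaks were found. The 33 members from KRTAP24-1 to KRTAP19-8, of high-sulfur and high glycine-tyrosine classes, had 5 SMC1 and 6 CTCF peaks. Their median −log10 q was 12.6 for SMC1 and 12.5 for CTCF, against 13.6 and 19.3 for all peaks of each target. The strongest stood beside KRTAP27-1, with a −log10 q of 38 for SMC1 and 48.7 for CTCF, and the next SMC1 peak, at 36.6, stood beside KRTAP7-1, where CTCF had 14. The second CTCF peak, beside KRTAP13-1, had 16.4 and no SMC1 partner. The longest stretch without SMC1 ran for 489.6 kb, and 0.479% of all stretches between SMC1 summits were longer. It held 27 members, including KRTAP22-2, KRTAP6-3 and KRTAP6-2, which lay 240511, 237833 and 232006 bp from SMC1. The 16 genes of KRTAP10 and KRTAP12 lie within the annotated model of TSPEAR, and had 1 SMC1 peak at 3.79 and 2 CTCF peaks at 3.36 and 2.38.

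The chromosome 11 loci differed from each other. The 6 genes from KRTAP5-1 to KRTAP5-6 had no peak of either target within 20 kb, in a stretch of 240.9 kb without a summit. Of all stretches between adjacent summits of either target, 0.852% were longer. KRTAP5-5, KRTAP5-4 and KRTAP5-3 were the farthest from SMC1, at 107656, 98839 and 85446 bp. The 5 genes from KRTAP5-7 to KRTAP5-11, of the same ultrahigh-sulfur family, all had SMC1 within 20 kb and 3 had CTCF. The strongest peaks surrounded KRTAP5-11, with SMC1 at 71.8, 50.5 and 48.5 and CTCF at 167.8, 164.1 and 101.1. The middle site of these lies in an intron of KRTAP5-11, and the first lies 1623 bp from the gene for SMC1 and 1597 bp for CTCF. Repeated windows made up 5.25% of the first locus and 4.19% of the second.

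Loops are pairs of 5 kb anchors with more read pairs than the authors' regression expects. Each list carries the label of a target, but the study's text gives the loop numbers to the targets the other way round. Which target a list belongs to is therefore uncertain, and the labels alone are used below. Of the members, 15 had an anchor of the list labelled SMC1 within 20 kb (10.1%, 6.20 to 15.9), against 53.1% of all genes, and 27 had one of the list labelled CTCF (18.1%, 12.8 to 25.1), against 77.5%. All 15 and 25 of the 27 were KRT genes. The 2 KRTAP genes were KRTAP7-1 and KRTAP8-1 on chromosome 21.

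The loops numbered 40 in the list labelled SMC1, 23 on chromosome 12 and 17 on chromosome 17. In the list labelled CTCF they numbered 66, with 42 on chromosome 12, 22 on chromosome 17 and 2 on chromosome 21. No loop of either list was anchored within 20 kb of a KRTAP5 gene on chromosome 11 or of a KRTAP10 or KRTAP12 gene. Every one of the 40 and of the 66 had a peak of each target at 1 anchor at least. The authors' loop calling takes a sample's peaks as input and requires an enriched anchor. For a list's own target the result was therefore set by the calling. The share for the other target was not computed over the whole lists. Both anchors lay near members in 11 of 40 loops (27.5%, 16.1 to 42.8) and 31 of 66 (47.0%, 35.4 to 58.8). These shares depend on the distance, and with 50 kb in place of 20 kb they were 74.1% and 69.7% of the loops near members.

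The most read pairs on chromosome 12 joined the site before KRT8 to an anchor beyond KRT18. The protein-coding start nearest to that anchor, at 21456 bp, is that of the translation factor gene EIF4B. The list labelled SMC1 gave 80 read pairs against 14.6 expected over 100 kb and 56 against 11.4 over 95 kb. The list labelled CTCF gave 116 against 14.8 and 121 against 12.7 for the same pairs of anchors. KRT8 and KRT18 both lie between these anchors. The next pair of places was KRT80 and KRT83, 165 kb apart, with 38 read pairs against 12.4 in the list labelled SMC1 and 65 against 9.1 in the list labelled CTCF.

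Loops were sorted by the strands of the motif hits at their anchors into convergent (pointing towards each other), tandem (pointing the same way) and divergent. Only hits within 50 bp of the summit of a CTCF peak that overlaps the anchor were used. The rest of each 5 kb anchor was not scanned. Among loops near members with a hit at both anchors, 4 of the list labelled SMC1 were convergent and 3 tandem, and 8 of the list labelled CTCF were convergent and 5 tandem, with no divergent loop in either. In the whole lists the convergent share was 57.1% of 1800 and 57.6% of 3182 loops with a hit at both anchors, and the divergent share 5.61% and 5.44%. Most loops near members, 33 of 40 and 53 of 66, had no such hit at one or both anchors, which does not mean that the anchors lack a motif. In the whole lists this held for a larger share, 25985 of 27785 and 76224 of 79406 loops. The longest loops of chromosome 12 ran across the cluster, from KRT80 to the anchor near EIF4B over 825 kb with 14 read pairs against 2.53 in the list labelled SMC1, and from KRT85 to the same anchor over 610 kb with 12 against 1.94 in the list labelled CTCF.

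On chromosome 17 the loop with the most read pairs in the list labelled CTCF bridged the empty stretch. It ran from the anchor beside KRT28 to an anchor beyond KRT17, 23885 bp from the start of EIF1, a gene of translation initiation. For these anchors the list labelled CTCF gave 78 read pairs against 3.03 expected over 860 kb, a ratio of 25.7. The list labelled SMC1 gave 38 against 3.76 for the same anchors, a ratio of 10.1. Of the 553 loops of 800 kb or more in the list labelled CTCF, 5 had at least as many read pairs and 7 at least this ratio, this loop included, and the median was 16 read pairs. Of the 119 such loops in the list labelled SMC1, 4 had at least its 38 read pairs and 27 at least its ratio, and the median was 15 read pairs.

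The same anchor beside KRT28 also joined the other way, to an anchor at a distance of 185 kb. The protein-coding start nearest to that anchor, at 25836 bp, is that of SMARCE1, a chromatin remodelling gene outside the cluster. This loop had 29 read pairs against 6.8 in the list labelled SMC1 and 40 against 9.64 in the list labelled CTCF. The longest loops, over 865 kb, had 23 read pairs against 3.88 and 24 against 2.54. The shorter loops of the chromosome 17 locus gathered at its far end. The list labelled SMC1 gave 44 read pairs against 19.4 over 85 kb from the anchor between KRT9 and KRT14 to the one near EIF1, and 43 against 11.54 over 115 kb from an anchor beside KRT9, the keratin of palm and sole epidermis. The list labelled CTCF gave 68 against 13.5 over 115 kb from the KRT9 side.

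The members within the empty stretch lay inside loops without an anchor beside them. From KRT12 to KRT38, each lay between the anchors of 7 loops of the list labelled SMC1 and 6 of the list labelled CTCF, with no anchor of either list within 20 kb. Over all members, 89 lay between the anchors of a loop of the list labelled SMC1 and 106 of the list labelled CTCF, against 35.5% and 57.9% of all genes. The split was by locus. In the list labelled SMC1 the 89 were all 27 members of chromosome 12 and all 62 of chromosome 17, and 0 of those on chromosomes 11 and 21. In the list labelled CTCF they were 26 and 62 there, with 2 of 33 and 16 of 16 in the chromosome 21 loci and 0 on chromosome 11. Of the 89 and 106, 74 and 82 had no anchor of that list within 20 kb. This count was not made over all genes, so whether it is particular to the members was not tested.

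**Figure D4:**
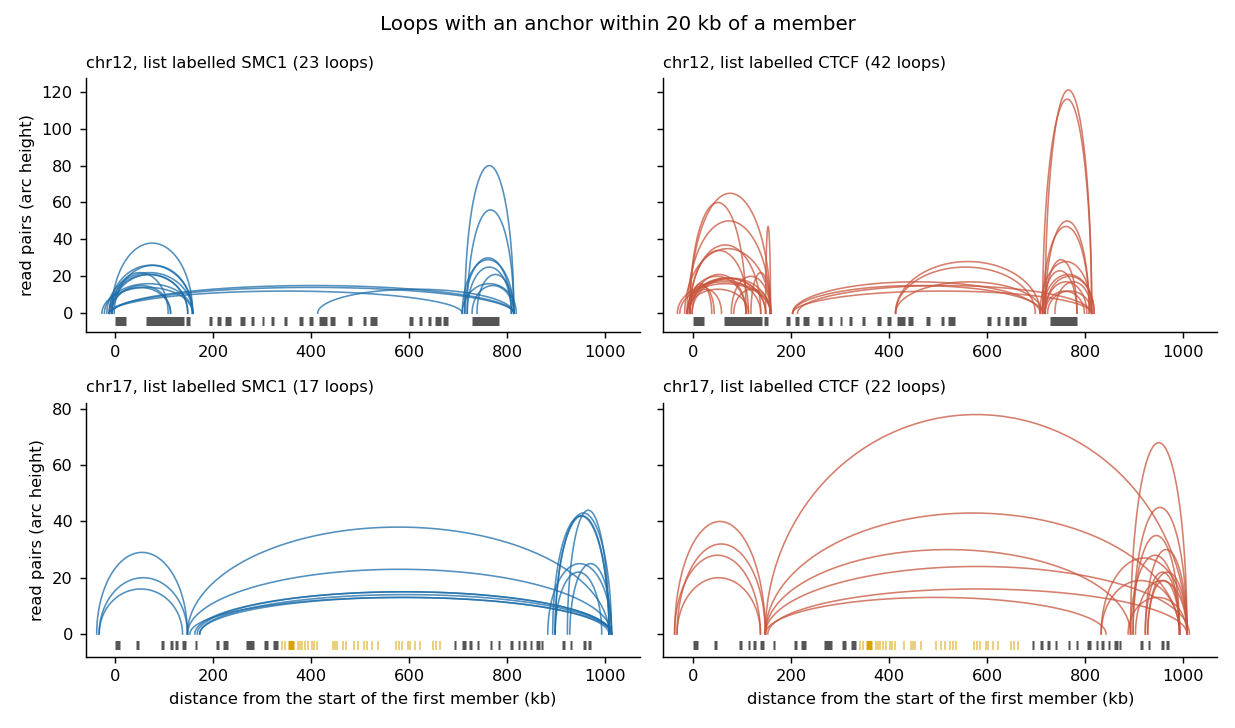
Loops with an anchor within 20 kb of a member on chromosomes 12 and 17, drawn as arcs whose height is the number of read pairs, against the distance from the start of the first member in kb, with KRT genes in grey and KRTAP genes in yellow below. In the lower panels the tallest long arcs, 38 and 78 read pairs, pass over the KRTAP block without an anchor in it.

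On chromosome 21 the 2 loops of the list labelled CTCF joined the site beside KRTAP7-1 to an anchor 255 and 250 kb away. They had 19 read pairs against 2.07 and 12 against 1.48. The protein-coding start nearest to that anchor, at 40221 bp, was that of TIAM1, a Rac exchange factor gene. Of the 5 other protein-coding genes within 20 kb of a member, SMARCE1 had 5 SMC1 and 5 CTCF peaks and TSPEAR had 5 and 7 within 20 kb, while DUSP8, beside the first chromosome 11 locus, had none. The intermediate filament genes outside the clusters had more loops, with an anchor of the list labelled SMC1 near 10 of 15 and of the list labelled CTCF near 14 of 15. VIM had 4 and 25 loops and LMNA 23 and 61.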

How the data were processed

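SMC1 FA-EGS HiChIP and CTCF FA-HiChIP of the HG00731 LCL had 2 replicates each, which the authors pooled. Libraries were converted with bcl2fastq 2.17. Titles and cell line fields name HG00731, while the growth protocol in the labels names HG00721. Alignment by the authors used BWA-MEM and hg38, with MapQ over 30 required and duplicates removed. For peak calling they set MACS3 3.0.1 to a q-value limit of 0.01 and an extension of 200 bp (bcl2fastq and MACS3 versions and the build per the submitters' processing notes). The fold enrichment the authors deposited is a ratio of summit signal to local background, and the authors deposited significance as −log10 q-values. The loop lists hold deposited raw counts of read pairs per pair of 5 kb anchors beside the number expected by MAPS. Columns of loop significance were not used.

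Positions were made 1-based and intersected with GENCODE release 44. The list labelled SMC1 held 27785 loops with 783375 read pairs on chromosomes 1 to 22 and that labelled CTCF 79406 with 2635261, besides 94628 and 61417 peaks. The lists carry no library depth. The study states more reads for SMC1 than for CTCF, so depth, crosslinking and target cannot be told apart. Gene classes followed the gene names. Members and lists were chosen with earlier results of these data known. The sites and genes named were, per cluster, starts with a summit within 1 kb, the 3 peaks of highest −log10 q, the 2 loops with most read pairs and the longest, the 3 members farthest from SMC1, the longest stretch without a peak and the members with most peaks. KRT10, KRT12, the comparison genes, the CTCF peak beyond KRT78, the loop to SMARCE1 and the clusters' other named members fall outside that rule and were chosen after their values were seen.

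The motif of 19 bases was learned by expectation maximization from 3000 CTCF summits on chromosomes that hold no member, chromosome 8 left out, and its minimum of 10.2 bits is passed by 5% of control windows. Other site sequences are not reported here. Stretches with over 1% unresolved bases were left out. Copies of 100-base windows were counted exactly on both strands of chromosomes 1 to 22, X and Y. The counting, overlap, motif and repeat steps recovered the answers planted in simulated data. Alternatives were other distances, q-value minimums, overlap rules, loop minimums, motif settings and exchanged loop lists. Python 3.11.15, numpy 2.4.6, pandas 2.3.3, scipy 1.17.1, numba 0.67.0 and matplotlib 3.10.9 were used.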

Additional observations from a re-analysis of the deposited data

How the results depend on the processing

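No paired analysis was possible because the deposited lists pool the replicates. The share of members with SMC1 stayed within its interval except within 50 kb, where it was 43.6%. The share with CTCF was 27.5% within 10 kb, 57.0% within 50 kb, 31.5% at a −log10 q of 5 or more and 25.5% at 10 or more. At 10 or more, 37 SMC1 and 44 CTCF peaks were left, with median folds of 4.91 and 6.05. With summits within 200 bp as the rule, 66.7% of SMC1 and 50.7% of CTCF peaks were shared. Loops with at least the median read pairs of their list numbered 20 (list labelled SMC1) and 29 (list labelled CTCF). Exchanging the lists gave 66 and 40, which are the same counts with the labels swapped. Of the loops near members, both anchors lay near members in 33.3% (labelled CTCF) within 10 kb, and in 74.1% (labelled SMC1) and 69.7% (labelled CTCF) within 50 kb. At the minimum passed by 1% of control windows, 13.3 bits, 9.33% of CTCF peaks had a motif hit. The other 29 comparisons of these values moved by less than their interval or 1.5 times. An alternative added after seeing the data, the share of loops with a peak of either assigned target at an anchor, stayed at 100% with the lists exchanged. It could not differ, because every loop near members had a peak of each target at an anchor. It therefore does not bear on which target a list belongs to. Of the values per cluster, 20 moved and 44 did not. The number of peaks limits the precision of every share.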
